A study of Mus musculus with 4 samples.

Results

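Expression of 10 genes of the epidermal growth factor (EGF) receptor system was examined in cultured mouse keratinocytes. The set holds 6 ligand genes (Areg, Ereg, Hbegf, Tgfa, Epgn and Btc), 3 receptor genes (Egfr, Erbb2 and Erbb3) and the receptor inhibitor gene Errfi1. Members were chosen by name: every probe whose gene name in the array files is one of these was taken, which gave 10 of 27962 gene names, and 23 probes on 59 spots out of 41174 probes on 43379 gene spots. Of the 23 probes, 22 passed the filter on dim probes, as did 35574 of all probes. The remaining one, an Egfr probe, was well above background on 0 arrays in either channel.

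The cells were epidermal keratinocytes of mice labelled as age P3, in 2 genotypes. Casp-8 F/- K5-Cre mice (F/- here) carried a loxP-flanked Casp-8 allele and a null allele, and Casp-8 F/+ K5-Cre mice (F/+ here) carried the flanked allele with a wild-type one. Both genotypes carried K5-Cre, a recombinase driven by the keratin 5 promoter of basal keratinocytes, so F/+ cells also bear the Cre and can lose 1 copy of Casp-8, the gene of the protease caspase-8. All cultures grew in serum-free medium with 5 ng/ml of added EGF and 50 µg/ml of bovine pituitary extract. Cells came from 2 mice of each genotype, and RNA was taken at passage 1 and again at passage 3, which makes 8 RNA samples. Each of 4 arrays held 1 F/- RNA in the dye Cy3 and 1 F/+ RNA in the dye Cy5, with 2 pairs of mice at each passage. The dyes were never exchanged, so in every ratio of F/- over F/+ a dye effect and the genotype cannot be told apart.

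EGF receptor ligands are made as membrane-bound precursors that proteases of the ADAM family release from the cell surface. A released ligand binds EGFR, the protein of Egfr, which pairs with itself or with ERBB2 or ERBB3 and starts the RAS, ERK and AKT cascades. In epidermis the system is known for driving keratinocyte growth, migration and wound closure, and keratinocytes make several of its ligands for themselves. Errfi1 encodes MIG6, which is induced by receptor signalling and binds and blocks the receptor's kinase domain.

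In the mouse genome (RefSeq, GRCm38.p6) Epgn, Ereg, Areg and Btc lie in this order on chromosome 5, within 375.5 kb that hold no other protein-coding gene. Epgn occupies chr5:91027517-91035212 and Btc, at the far end, chr5:91357261-91402994. The 250 bases before the transcription start are shown for Epgn, the ligand gene on which the results turn, and for its neighbours Areg and Btc, which did not pass the test in any comparison. They are RefSeq sequences read 5′ to 3′ towards the gene, from chr5:91027267-91027516 (plus strand) for Epgn, chr5:91139349-91139598 (plus strand) for Areg and chr5:91402995-91403244 (minus strand) for Btc. Capitals mark matches to any of 5 motifs.
Epgn: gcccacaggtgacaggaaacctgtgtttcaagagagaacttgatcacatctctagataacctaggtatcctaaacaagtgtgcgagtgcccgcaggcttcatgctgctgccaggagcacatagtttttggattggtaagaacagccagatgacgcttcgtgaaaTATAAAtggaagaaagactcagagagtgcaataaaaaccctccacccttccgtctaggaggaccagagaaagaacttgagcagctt
Areg: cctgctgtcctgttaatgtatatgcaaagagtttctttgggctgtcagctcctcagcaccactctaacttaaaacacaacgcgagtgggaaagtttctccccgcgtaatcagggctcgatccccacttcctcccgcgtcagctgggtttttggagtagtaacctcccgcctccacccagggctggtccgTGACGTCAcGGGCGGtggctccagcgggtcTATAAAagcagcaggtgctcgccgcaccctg
Btc: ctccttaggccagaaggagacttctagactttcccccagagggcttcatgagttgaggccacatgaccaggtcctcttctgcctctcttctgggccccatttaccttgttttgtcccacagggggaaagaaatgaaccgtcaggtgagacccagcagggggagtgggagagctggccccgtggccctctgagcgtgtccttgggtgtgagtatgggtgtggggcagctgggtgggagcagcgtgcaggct
Both strands were searched for the AP-1 motif TGANTCA, the TATA box with the letters TATAAA, the GC box with the letters GGGCGG, the cyclic AMP response element (CRE) TGACGTCA, and an NF-kB motif of GGGA and CC with any 4 bases between them. The Epgn window held 1 match, a TATA box that begins 86 bases before the start. The Areg window held a TATA box at 31, a GC box at 52 and a CRE at 61 bases before the start. The Btc window held no match. Of 32851 promoter windows of the same length in the RefSeq table, 12.4% held the TATA box, 32.7% the GC box, 1.55% the CRE, 6.75% the AP-1 motif and 17.6% the NF-kB motif. The matches are a description of these letters and say nothing of binding.

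Values below are log2 ratios of F/- over F/+ on 1 array, or normalized log2 intensities of 1 channel, called levels. Genes were tested with limma over all kept probes, and a gene was called at a Benjamini-Hochberg adjusted p under 0.05. A gene with several probes is represented by its brightest kept probe, and its other probes are given beside it as values or ranges. The median raw signal of an array was 101 to 138.9 for Cy3 and 166.1 to 252.7 for Cy5, with 0 saturated spots and 75.8% to 87.9% of gene spots clear of background. Precision is set by the number of arrays, 2 at each passage. Where groups of 2 values are said not to overlap, the share of all probes that do the same was not counted. Such statements only describe the values. The Casp-8 probe had ratios of 0.42 and 0.18 at passage 1 and 0.47 and -0.20 at passage 3. The sources used here do not say whether this probe lies in the deleted part, and it therefore checks nothing about the labels. Basal keratinocyte markers were above background on all arrays, and the labels name no sort of the cells.

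**Figure D1:**
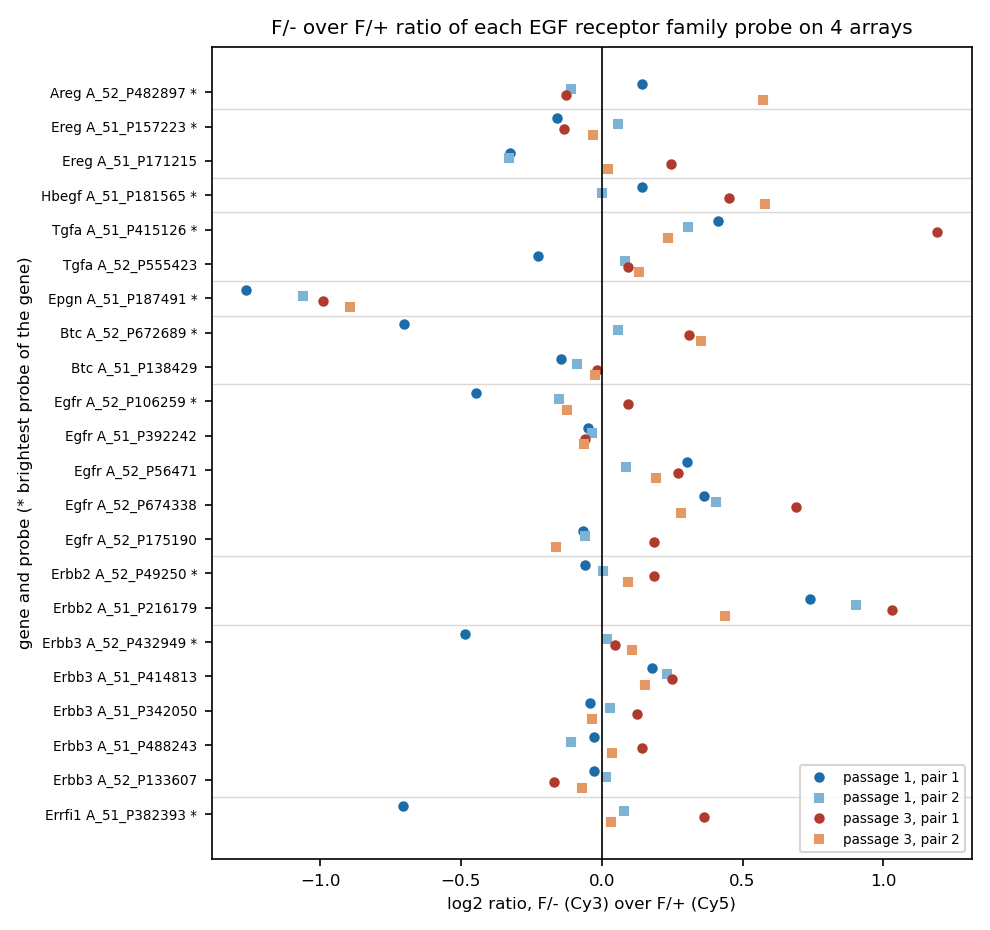
Log2 ratio of F/- (Cy3) over F/+ (Cy5) for the 22 probes of the 10 genes, 1 point for each of the 4 arrays, coloured by passage and shaped by pair; an asterisk marks the brightest probe of a gene. The 4 points of Epgn lie between -1.26 and -0.89, below those of every other probe shown.

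Epgn was the only member gene called in the ratio of F/- over F/+, where dye and genotype cannot be told apart. It encodes epigen, a small ligand of EGFR. Its log2 ratios of F/- over F/+ were -1.26 and -1.06 on the arrays of pairs 1 and 2 at passage 1, and -0.99 and -0.89 at passage 3. All 4 arrays read lower in F/- cultures, with little spread among them. The mean over both passages was -1.05 ± 0.16 (SD, n = 4, 95% confidence interval -1.21 to -0.89, limma adjusted p = 0.0257), so that Epgn in F/- cultures stood at 48.2% of its level in F/+ cultures. Ranked by this mean, the Epgn probe was number 56 from the lowest of 35574.

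The Epgn call holds for the mean of both passages and not within one passage. At passage 1 the ratio was -1.16 ± 0.14 (SD, n = 2, adjusted p = 0.0704) and at passage 3 it was -0.94 ± 0.07 (adjusted p = 0.0790), no probe having a smaller adjusted p in either comparison. The difference between passages, 0.22 with a 95% confidence interval from -0.10 to 0.54, did not pass the test (adjusted p = 0.895). The mean counts the 4 arrays as separate animals although they come from 2 pairs of mice. With the arrays of each pair averaged first the Epgn ratio was the same and its adjusted p was 0.0513, and leaving out pair 1 at passage 1, pair 2 at passage 1 or pair 1 at passage 3 gave adjusted p-values of 0.147, 0.0825 and 0.0686.

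Counted over the 10 genes, 1 was called in the mean of both passages, Epgn, lower in F/- cultures, where 3.41% of 24248 genes with 1 probe each were called lower and 4.66% higher. Of the 22 probes 1 was lower and 2 were higher, an Egfr and an Erbb2 probe, against 2.99% and 5.85% of all 35574 probes. Those percentages stand for 1064 lower and 2080 higher probes, which became 3050 lower and 917 higher with median centring in place of loess. At passage 1, at passage 3 and in the difference between passages limma called 0 members, and 0% of all probes. At an unadjusted p under 0.05 it had 6, 6 and 2 of the 22 probes there, and 7333, 7109 and 2074 of all probes.

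Epgn also fell with culture passage, in both genotypes. At passage 3 its level was 9.25 and 9.47 in F/- cultures, against 11.10 and 10.94 at passage 1. In F/+ cultures the level was 10.24 and 10.37 at passage 3, against 12.36 and 12 at passage 1. No value of passage 3 reached one of passage 1 in the same genotype. The change was -1.66 ± 0.18 (SE, adjusted p = 0.00341) in F/- and -1.87 ± 0.18 (SE, adjusted p = 0.00189) in F/+, which leaves 31.8% and 27.3% of the passage 1 level.

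The 4 groups therefore formed 1 order with no overlap between neighbours: F/- at passage 3 was lowest, F/+ at passage 3 next, then F/- at passage 1, and F/+ at passage 1 was highest. Their mean levels were 9.36 ± 0.15, 10.30 ± 0.09, 11.02 ± 0.11 and 12.18 ± 0.25 (SD, n = 2 each). Without the passage 1 array of pair 1 the adjusted p of the passage change was 0.0828 in F/- and 0.0667 in F/+, and without the passage 1 array of pair 2 it was 0.0665 in F/-.

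Of the 10 genes, 1 fell with passage in F/-, Epgn, and 2 fell in F/+, Epgn and Erbb3, while 0 rose. Of 24163 genes, 2.52% fell and 3.2% rose in F/-, and 2.64% fell and 3.7% rose in F/+. Counted by probe, 2 of 22 fell in F/- and 3 of 22 in F/+, the second Tgfa probe being the further one, against 2.28% and 2.49% of the 35475 probes tested. With the pair of mice as a block 2 genes fell in F/- and 3 in F/+, while the calls over all probes numbered 3883 and 4083 in place of 1807 and 2007.

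The signal of suprabasal keratinocyte genes was also lower in F/- than in F/+ cultures, and lower at passage 3 than at passage 1. The summed linear intensity of Krt1, Krt10, Lor, Ivl, Krtdap and Sbsn was 60991 and 80462 in F/- cultures at passage 1, against 170724 and 135955 in F/+ cultures. At passage 3 the sum was 5188 and 4750 in F/- cultures, against 11492 and 7786 in F/+ cultures. Of these 6 markers 3 were lower in F/- cultures in the mean of both passages, namely Krtdap (log2 ratio -1.47), Sbsn (-1.19) and Lor (-0.84), and the same 3 were lower at passage 3 in each genotype. In each of these comparisons 1 of the 6 markers had a value above 0. Of all genes 3.41% were called lower in the mean of both passages, and with passage 2.52% fell in F/- and 2.64% in F/+. Basal keratinocyte markers were divided in the mean of both passages. Of the 6, 3 were called lower in F/- cultures, Krt14 (-0.66), Krt5 (-0.60) and Col17a1 (-0.58). The other 3 had ratios above 0, and the list median was -0.27. With the arrays of each pair averaged first, 0 probes of the array were called in this mean, so the basal and suprabasal calls in it were lost. The summed intensity of all 6 basal markers at passage 3 was 418004 and 395670 in F/- cultures, against 603646 and 579468 in F/+ cultures. At passage 1 it was 515705 and 442002, against 517896 and 605632. Melanocyte markers were lower at passage 3 too, with 4 of 6 called in F/- and 3 of 6 in F/+. In unsorted cultures fewer cells of a type and less RNA per cell cannot be told apart, and the part of these cells in the Epgn ratios was not tested.

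**Figure D2:**
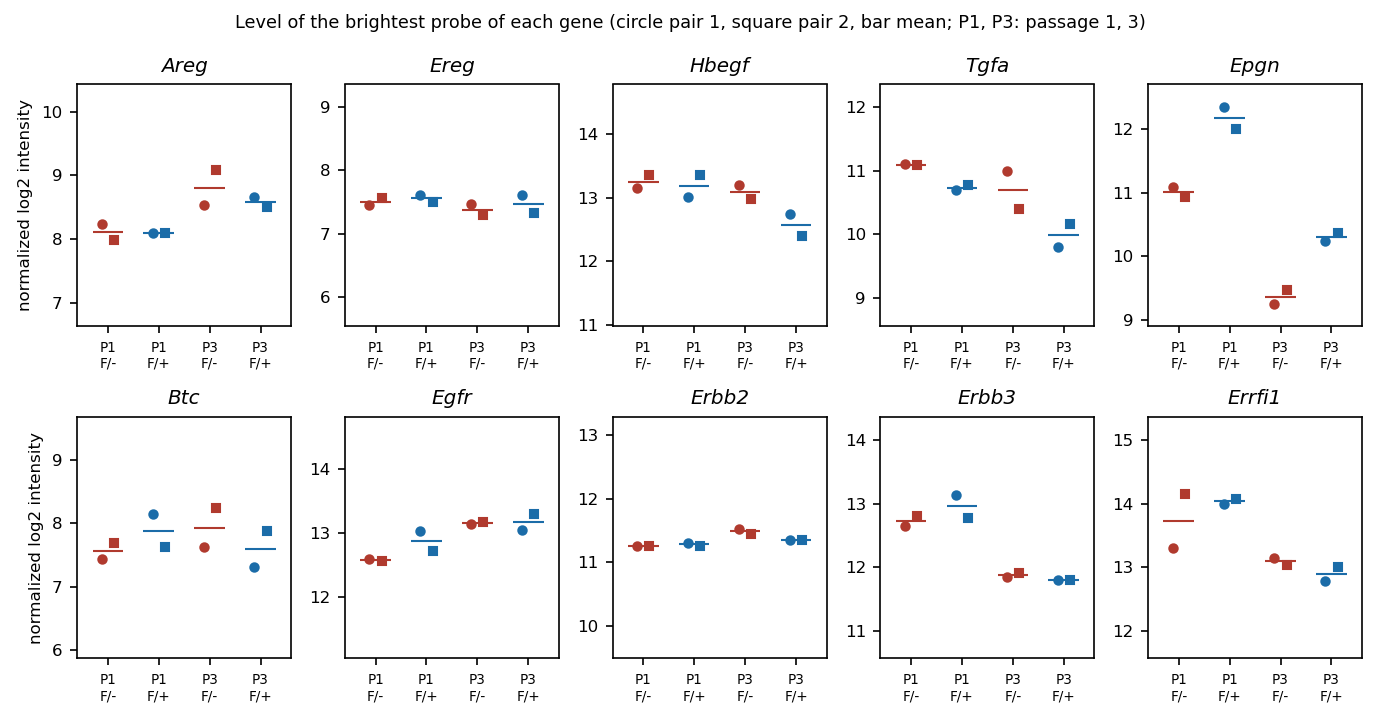
Normalized log2 intensity of the brightest probe of each gene, with circles for pair 1, squares for pair 2 and a bar for the mean of 2 cultures, for F/- and F/+ at passage 1 (P1) and passage 3 (P3). In the Epgn panel the F/- cultures lie below the F/+ cultures at both passages, and passage 3 lies below passage 1.

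Among the other ligand genes, Hbegf and Tgfa had the highest ratios, and neither was called. Hbegf, the gene of the heparin-binding EGF-like factor, had ratios of 0.14 and 0.00038 at passage 1 and 0.45 and 0.58 at passage 3. The late ratios lay above the early ones, all 4 being above 0. The late mean of 0.51 ± 0.09 (SD, n = 2) had an adjusted p of 0.0840, and the mean of both passages, 0.29 with a 95% confidence interval from 0.14 to 0.45, one of 0.0517. With median centring in place of loess the Hbegf mean was -0.04, so its sign depends on the scaling.

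Tgfa, the gene of transforming growth factor alpha, gave different readings with its 2 probes. The brighter probe, A_51_P415126, printed on 10 spots, had ratios of 0.41 and 0.31 at passage 1 and 1.19 and 0.24 at passage 3. Its mean was 0.54 ± 0.44 (SD, n = 4, adjusted p = 0.110), with the passage 3 array of pair 1 far above the other arrays. Without the passage 3 array of pair 2 this mean was 0.78 with an adjusted p of 0.0220, without that of pair 1 it was 0.30 (adjusted p = 0.131), and with the mean of both Tgfa probes it was 0.28 (adjusted p = 0.130). The second Tgfa probe, A_52_P555423, read -0.23 and 0.08 at passage 1 and 0.09 and 0.13 at passage 3, on both sides of 0.

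With passage the 2 Tgfa probes parted as well. The second probe read 8.01 and 7.54 at passage 3 in F/- cultures, against 9.06 and 8.98 at passage 1. In F/+ cultures it read 7.92 and 7.41 at passage 3, against 9.29 and 8.90 at passage 1. The groups did not overlap, and the probe fell, with log2 changes of -1.24 in F/- (adjusted p = 0.0274) and -1.43 in F/+ (adjusted p = 0.0151). The brighter Tgfa probe changed by -0.40 (95% confidence interval -1.27 to 0.48, adjusted p = 0.583) in F/- and -0.75 (-1.62 to 0.12, adjusted p = 0.302) in F/+, and was not called. The calls of the second probe were lost without either array of passage 1 and without pair 2 at passage 3, and in F/- also with no normalization between arrays.

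Areg, Ereg and Btc, the neighbours of Epgn on chromosome 5, did not follow it. Areg, the gene of amphiregulin, had ratios of 0.14 and -0.11 at passage 1 and -0.13 and 0.57 at passage 3. These values lie on both sides of 0 at each passage, with a mean of 0.12 (95% confidence interval -0.22 to 0.46, adjusted p = 0.596). Areg read 8.53 and 9.08 at passage 3 in F/- cultures, against 8.23 and 7.98 at passage 1, and in F/+ cultures 8.65 and 8.51, against 8.09 and 8.09. Every level of passage 3 lay above those of passage 1, but the changes of 0.70 in F/- and 0.49 in F/+ were not called (adjusted p = 0.255 and 0.401). Without the passage 3 array of pair 1 Areg was called in F/-.

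Ereg, the gene of epiregulin, had ratios between -0.33 and 0.25 on every array with both probes. Its brighter probe, A_51_P157223, read -0.16 and 0.06 at passage 1 and -0.13 and -0.03 at passage 3. The second Ereg probe, A_51_P171215, read -0.33 and -0.33 at passage 1 and 0.25 and 0.02 at passage 3, so that its early arrays lay below 0 and its late arrays above. The difference of 0.46 was not called (adjusted p = 0.819). With passage the brighter probe changed by -0.13 (95% confidence interval -0.52 to 0.27) in F/- and -0.10 (-0.49 to 0.30) in F/+, and neither value was called.

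Btc, the gene of betacellulin, had ratios of -0.70 and 0.06 at passage 1 and 0.31 and 0.35 at passage 3. The passage 1 arrays of the 2 pairs disagreed, and the mean was 0.0038 (95% confidence interval -0.34 to 0.35, adjusted p = 0.989). A second Btc probe was well above background in F/- on 1 array and in F/+ on 2 arrays, and its ratios between -0.14 and -0.02 stand near background.

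Egfr, the receptor gene that all 6 ligands share, had 5 kept probes that did not give 1 direction. The brightest probe, A_52_P106259, read -0.45 and -0.15 at passage 1 and 0.09 and -0.12 at passage 3, with a mean of -0.16 (95% confidence interval -0.36 to 0.05, adjusted p = 0.259). Probe A_51_P392242, printed on 10 spots, read between -0.06 and -0.03 on all 4 arrays. Probe A_52_P56471 read 0.30 and 0.09 at passage 1 and 0.27 and 0.19 at passage 3, and A_52_P175190 read -0.07 and -0.06 at passage 1 and 0.18 and -0.16 at passage 3, neither being called. Probe A_52_P674338 was dimmer, with a mean log2 intensity of 9.41 against 12.95 for the brightest. It read 0.36 and 0.41 at passage 1 and 0.69 and 0.28 at passage 3. It was called higher in the mean of both passages (0.44 ± 0.18, SD, n = 4, adjusted p = 0.0470). That call was lost with the pair as a block (adjusted p = 0.0523), with median centring (0.0986), with the scanner's own ratios (0.0795), with the arrays of each pair averaged (0.0624), and without either early array or the passage 3 array of pair 1.

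With passage the brightest Egfr probe read 13.14 and 13.18 at passage 3 in F/- cultures, against 12.59 and 12.56 at passage 1. In F/+ cultures it read 13.05 and 13.30 at passage 3, against 13.03 and 12.71 at passage 1. The passages did not overlap in F/-, and in F/+ they were barely apart (13.05 against 13.03). The changes of 0.59 (95% confidence interval 0.13 to 1.05) in F/- and 0.30 (-0.15 to 0.76) in F/+ were not called (adjusted p = 0.145 and 0.413). All 5 Egfr probes had positive changes in both genotypes, between 0.14 and 0.59 in F/- and between 0.05 and 0.38 in F/+.

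Erbb2 encodes the partner receptor that binds no ligand of its own. Its brightest probe, A_52_P49250, printed on 10 spots, read -0.06 and 0.01 at passage 1 and 0.18 and 0.09 at passage 3, close to 0 on every array. The second Erbb2 probe, A_51_P216179, was dimmer and on 1 spot, with a mean log2 intensity of 7.83 against 11.35. This second probe read 0.74 and 0.90 at passage 1 and 1.03 and 0.44 at passage 3. It was higher in F/- on 4 of 4 arrays and was called in the mean of both passages (0.78 ± 0.26, SD, n = 4, adjusted p = 0.0307), while the first probe was not (0.06, 95% confidence interval -0.09 to 0.20, adjusted p = 0.554). Both probes carry the same RefSeq accession in the file, so the 2 readings are of 1 gene record and differ. The second probe's adjusted p was 0.0513 with the arrays of each pair averaged, and its call was also lost without either early array or the passage 3 array of pair 1. With passage neither Erbb2 probe was called, the changes lying between 0.07 and 0.54 in the 2 genotypes.

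Erbb3 encodes a receptor with little kinase activity of its own, which signals through its partners. The brightest probe, A_52_P432949, read -0.49 and 0.02 at passage 1 and 0.05 and 0.11 at passage 3, with a mean of -0.08 (95% confidence interval -0.33 to 0.17, adjusted p = 0.648). With passage it read 11.85 and 11.91 at passage 3 in F/- cultures, against 12.66 and 12.81 at passage 1. In F/+ cultures it read 11.80 and 11.80 at passage 3, against 13.14 and 12.79 at passage 1. Both late cultures of each genotype lay below both early ones. The change of -0.85 in F/- was not called (adjusted p = 0.0852), except with the pair as a block (adjusted p = 0.0261), and in F/+ the probe fell by 1.16 on the log2 scale (adjusted p = 0.0307). The difference between the genotypes in this change is the late minus early ratio of 0.31, which did not pass the test (adjusted p = 0.906).

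That Erbb3 probe is assigned in the file to a predicted transcript record that the RefSeq table used here does not hold, so whether it measures Erbb3 was not tested. The other 4 Erbb3 probes, assigned to the known RefSeq transcript, were far dimmer and gave smaller changes. Their mean log2 intensities lay between 6.46 and 7.11, against 12.35 for the brightest probe. Whether the low signal of these 4 probes made their changes smaller was not tested. The 4 probes changed by between -0.45 and -0.01 in F/- and between -0.44 and 0.10 in F/+, and none was called. Their genotype ratios lay between 0.15 and 0.25 on all arrays with A_51_P414813, and between -0.17 and 0.14 with the remaining 3 probes. The Erbb3 call in F/+ was lost when the brightest probe of the known transcript was used, a choice made after seeing the data (-0.44, adjusted p = 0.205), and without each single array in turn. It was also lost with no normalization between arrays (adjusted p = 0.140) and with the scanner's processed signals (0.0832). With the mean of all kept probes the Erbb3 change in F/+ was -0.42 and not called (adjusted p = 0.102), while that of Tgfa was -1.09 and was called (adjusted p = 0.0338). The Erbb3 ratio of F/- over F/+ at passage 1 was 0.21 with that probe and -0.23 with the brightest one, so its sign depends on the probe.

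Errfi1, the gene of the receptor inhibitor MIG6, had ratios of -0.71 and 0.08 at passage 1 and 0.36 and 0.03 at passage 3. Only the passage 1 array of pair 1 lay below 0, and the mean of -0.06 (95% confidence interval -0.44 to 0.32, adjusted p = 0.831) was not called. With passage Errfi1 read 13.14 and 13.04 at passage 3 in F/- cultures, against 13.29 and 14.15 at passage 1. In F/+ cultures it read 12.78 and 13.01 at passage 3, against 14.00 and 14.07 at passage 1. The late levels lay below the early ones in both genotypes, by a wide gap in F/+ and a narrow one in F/-. The changes of -0.63 in F/- (adjusted p = 0.369) and -1.14 in F/+ (adjusted p = 0.124) were not called. With the pair as a block the change in F/+ was called (adjusted p = 0.0400).

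**Figure D3:**
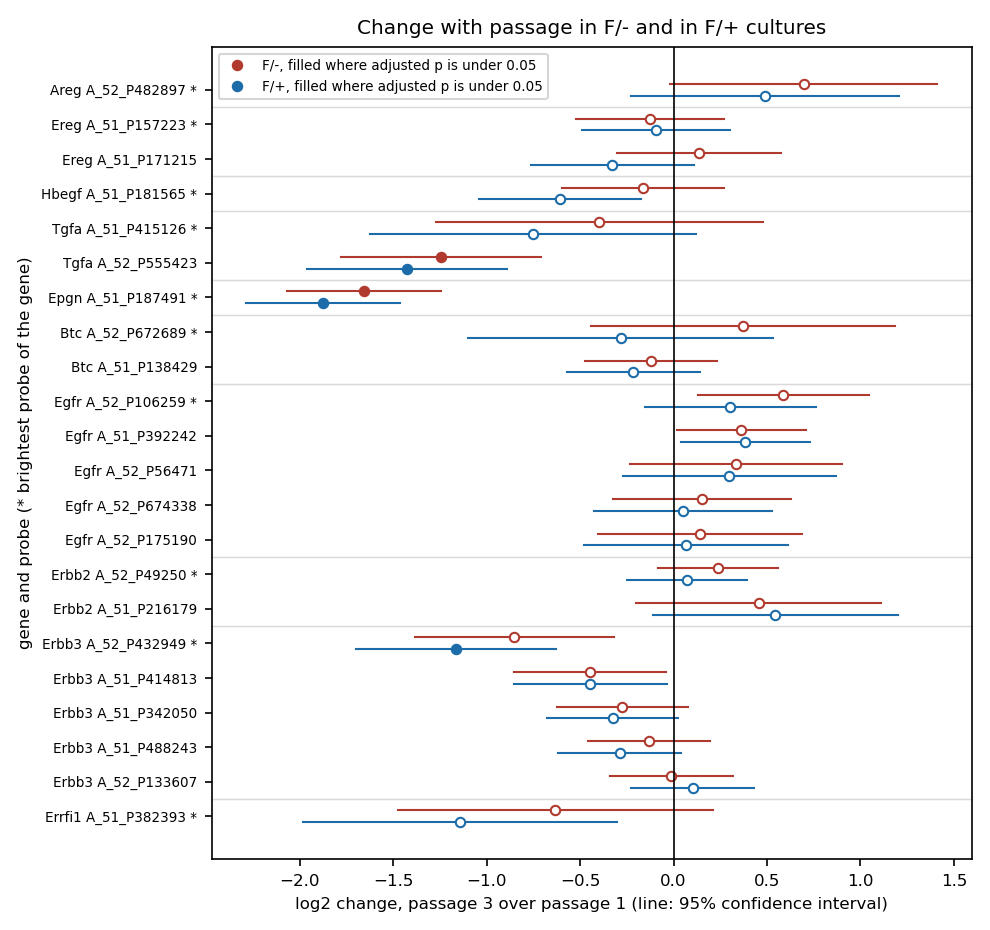
Log2 change from passage 3 over passage 1 in F/- (red) and F/+ (blue) for the 22 probes, with 95% confidence intervals; filled points have an adjusted p under 0.05. Epgn and the second Tgfa probe are filled in both genotypes and the brightest Erbb3 probe in F/+, all below 0.

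Of the 10 genes, all but Areg, Ereg and Hbegf had ratios that moved between the passages in pair 1 more than in pair 2. At passage 1 the median ratio of the 10 genes was -0.14, with 3 above 0, and at passage 3 it was 0.17, with 7 above 0. The medians of all genes were -0.02 at both passages, with 45.8% of all genes above 0 at passage 1 and 43.4% at passage 3. The late minus early difference was above 0 for 9 of 10 genes, with a median of 0.30, against 48.3% of all genes and a median of -0.01. Taken by pair, it was above 0 for 9 of 10 genes in pair 1, between -0.27 for Areg and 1.07 for Errfi1, and for 7 of 10 in pair 2, between -0.09 for Ereg and 0.68 for Areg. None of these differences was called. The passage 1 array of pair 1 held the lowest ratio of 7 of the 10 genes, namely Ereg, Epgn, Btc, Egfr, Erbb2, Erbb3 and Errfi1. For what share of all genes that array held the lowest ratio was not counted.

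Genes that act on the ligands before they reach the receptor include 9 measured shedding genes, of which 2 were higher in F/- cultures in the mean of both passages, against 4.66% of all genes. Rhbdf2 and Rhbdf1 encode the inactive rhomboids iRhom2 and iRhom1, which carry the protease ADAM17 to the cell surface. The brightest Rhbdf2 probe had ratios of 0.89 and 0.86 at passage 1 and 0.87 and 0.74 at passage 3, nearly the same on all 4 arrays (mean 0.84 ± 0.06, SE, adjusted p = 0.0257). With the mean of all kept probes Rhbdf2 was at 0.61 (adjusted p = 0.0266). Rhbdf1 had ratios of 0.65 and 0.61 at passage 1 and 0.26 and 0.42 at passage 3 (mean 0.48 ± 0.06, SE, adjusted p = 0.0262), a call lost with the scanner's ratios (adjusted p = 0.0551). Adam17, the gene of the protease itself, had a mean ratio of 0.10 and was not called (adjusted p = 0.396). The median of the shedding list was 0.10 with loess and -0.09 with median centring, where Rhbdf2 alone of the list was called (0.62). Of the 9 genes 0 were called with passage in either genotype.

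Of 4 other receptor and neuregulin genes measured, 0 were called between the genotypes. With median centring 2 of them, Erbb4 and Nrg4, were called lower in F/- cultures, and the list's median was -0.20 in place of -0.09. Nrg1, the gene of the ERBB3 ligand neuregulin 1, read 9.52 and 9.04 at passage 3 in F/- cultures, against 12.52 and 11.70 at passage 1. In F/+ cultures Nrg1 read 9.51 and 9.30 at passage 3, against 11.53 and 11.97 at passage 1. The passages were far apart in both genotypes, and Nrg1 fell, with log2 changes of -2.83 in F/- (adjusted p = 0.0228) and -2.35 in F/+ (adjusted p = 0.0387). Both calls were lost without the passage 1 array of pair 1, without that of pair 2 at passage 3 and with no normalization between arrays, and the call in F/+ also without the passage 1 array of pair 2.

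Among 18 measured negative regulators 1 was higher and 1 lower in F/- cultures, a share near the 4.66% and 3.41% of all genes. Spred3, which encodes a Sprouty-related inhibitor of the RAS and ERK cascade, had a mean ratio of 0.55 ± 0.07 (SE, adjusted p = 0.0276). Lrig2, of the LRIG family of membrane proteins, had one of -0.32 ± 0.06 (SE, adjusted p = 0.0473), a call lost with the pair as a block and with the scanner's ratios. The Lrig2 call was also lost with the mean of all kept probes (-0.22, adjusted p = 0.0952), with background offset 0 (0.0676) and with no background subtraction (0.0519). In each genotype 1 regulator rose with passage, Sh3kbp1, which encodes the adaptor CIN85 of receptor uptake. Sh3kbp1 read 14.03 and 14.54 at passage 3 in F/- cultures, against 11.64 and 12.08 at passage 1, and 13.67 and 14.25 in F/+ cultures, against 11.71 and 11.77. It rose by 2.43 in F/- (adjusted p = 0.00339) and 2.22 in F/+ (adjusted p = 0.00425).

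Of 25 genes that relay the signal inside the cell 3 were higher in F/- cultures, against 4.66% of all genes: Akt2 (0.57 ± 0.05, SE), Map2k1 (0.54 ± 0.10) and Mapk3 (0.37 ± 0.07). They encode the kinases AKT2, MEK1 and ERK1. All 3 calls were lost with median centring, where 0 relay genes were higher and 3 were lower and the list's median was -0.20 in place of 0.07. Of the 25 genes 0 were called with passage.

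Of 19 measured genes known to be induced by ERK signalling, 3 were higher and 1 was lower in F/- cultures, against 4.66% and 3.41% of all genes. Etv5, which encodes an ETS transcription factor, had ratios of 0.91 and 1.05 at passage 1 and 1.16 and 0.45 at passage 3 (mean 0.89 ± 0.13, SE, adjusted p = 0.0305). With the mean of all kept probes Etv5 was at 0.67 (adjusted p = 0.0393). Ier2 and Ier3, immediate early genes, had mean ratios of 0.53 and 0.45. The lower gene was Egr1, the gene of a zinc finger transcription factor, at -0.33, named after its value was seen. With median centring 1 gene, Etv5, was higher and 3 were lower (Junb, Egr1 and Phlda1), and the list's median was -0.21 in place of 0.26. With the scanner's ratios Etv5 alone was called. The calls of Ier2 and Egr1 were also lost with the pair as a block, and that of Ier2 with the mean of all kept probes (0.29, adjusted p = 0.144).

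Of the ERK-induced genes 3 fell with passage in F/- and 5 in F/+, against 2.52% and 2.64% of all genes, and 0 rose. Fos, the gene of an AP-1 subunit, read 8.56 and 9.07 at passage 3 in F/- cultures, against 11.93 and 11.25 at passage 1, and 8.49 and 9.14 in F/+ cultures, against 11.68 and 11.67. It fell, with log2 changes of -2.78 in F/- (adjusted p = 0.00573) and -2.86 in F/+ (adjusted p = 0.00448). Egr3, of the EGR transcription factors, fell as well (-1.37 in F/- and -2.13 in F/+), and so did the phosphatase gene Dusp1 (-1.22 in F/- and -1.07 in F/+). The median change of the 19 genes was -0.44 in F/- and -0.37 in F/+, against 0.01 and 0.02 over all genes. These calls, and those of Sh3kbp1, were lost without either early array. The Egr3 call in F/- was also lost with the mean of all kept probes (-0.65, adjusted p = 0.116). It was lost too with no normalization between arrays and without the passage 3 array of pair 1. The Dusp1 calls were lost in both genotypes with no normalization between arrays and with the scanner's processed signals. So were the calls of the ERK-induced genes that fell in F/+ alone. The list calls in the genotype comparison were lost without either early array, without the passage 3 array of pair 1, and with the arrays of each pair averaged first.

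**Figure D4:**
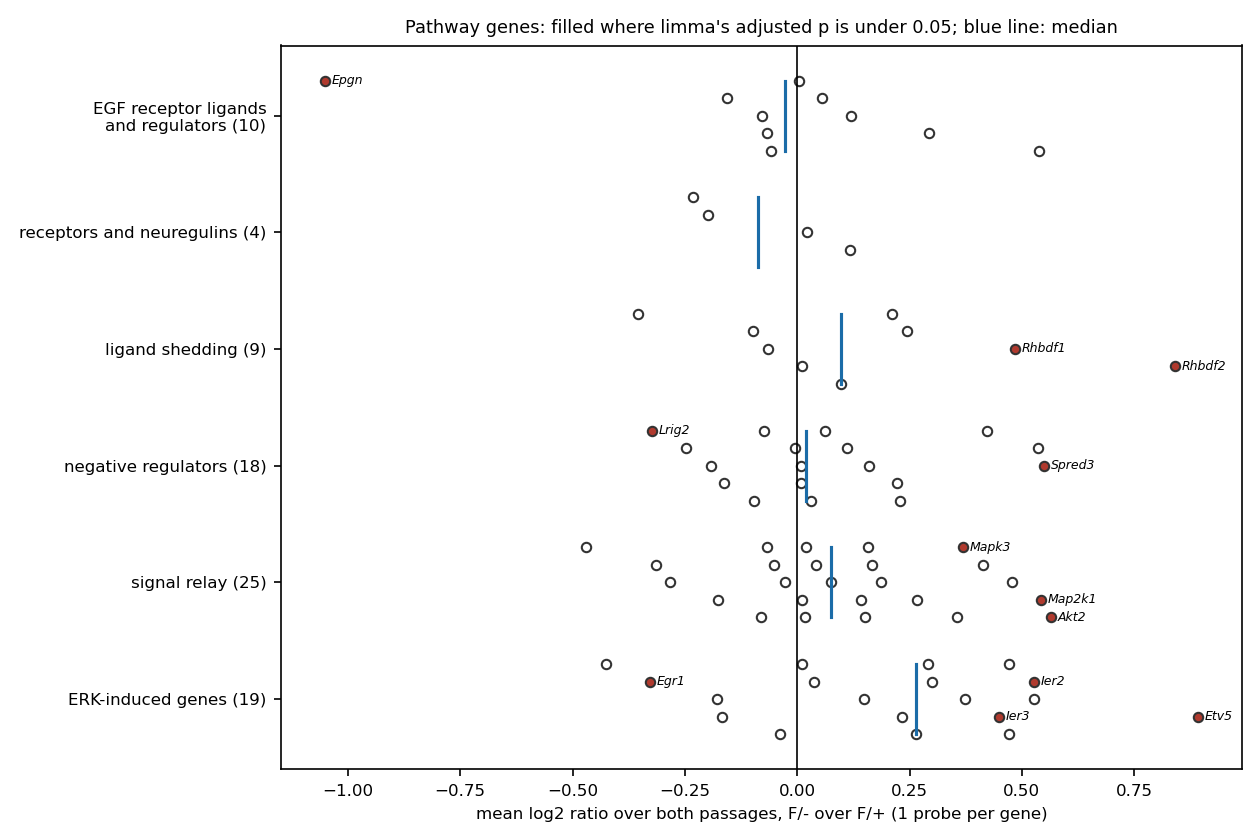
Mean log2 ratio of F/- over F/+ over both passages for the 10 genes and 5 further lists of the pathway, 1 point per gene represented by its brightest probe; filled points have an adjusted p under 0.05 and the blue line is the median. Epgn is the lowest point of all lists and Etv5 and Rhbdf2 are the highest.

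Markers of other cells are given beside these counts. Of 8 macrophage and leukocyte markers 1, Lyz2, was higher in F/- cultures in the mean of both passages (log2 ratio 1.27, adjusted p = 0.0258), as was 1 of 4 Langerhans cell markers, Epcam (0.62, adjusted p = 0.0388). Of all genes 4.66% were called higher, and the Lyz2 and Epcam calls were lost with the arrays of each pair averaged first. Of 6 fibroblast markers 0 were called. The summed linear intensity of the macrophage and leukocyte markers at passage 3 was 12686 and 7874 in F/- cultures, against 2925 and 2750 in F/+ cultures, and at passage 1 it was 34982 and 23809, against 21949 and 24411. That of the fibroblast markers at passage 3 was 4006 and 2901 in F/- cultures, against 1299 and 2038 in F/+ cultures. At passage 1 the fibroblast sums overlapped, at 1391 and 1401 in F/- and 1074 and 1504 in F/+. The Langerhans cell sum was 38673 and 56275 in F/- cultures at passage 1, against 25452 and 34486 in F/+, and at passage 3 it was 71345 and 70258, against 40087 and 57250. At passage 1, 3 of the 4 Langerhans cell markers had ratios above 0. At passage 3 only 1 of the 4 did, with a list median of -0.13, so the sum does not stand for most of that list. All markers of these 3 lists were above background on every array in both channels. The part of these cells in the ratios of the pathway genes was not tested.

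Over the 8 channel values, 2 genotypes at 2 passages in 2 pairs, Epgn had the widest range of the ligand genes (3.1) and Errfi1 of the receptor and inhibitor genes (1.37). By Euclidean distance between centred log2 levels, the named genes with a pattern most like that of Epgn were Gnai1 (0.54), Plagl1 (0.55), Bnipl (0.58), Wnt3 (0.72) and Gramd3 (0.80), among 21060 probes. For Errfi1 they were Pmvk (0.37), Mtus1 (0.38), Slco1a5 (0.43), Cyp1b1 (0.44) and Casz1 (0.48).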

How the data were processed

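Two-colour Agilent arrays of 8 RNA samples were read with, per the submitters' processing notes, Agilent Feature Extraction 9.1.3.1. The deposited scanner files hold, per the file headers, raw spot intensity (mean signal, local background), an intensity processed by the scanner software, and log10 of the processed ratio Cy5 over Cy3. The authors' value table holds log10 ratios equal to those of the scanner with opposite sign, so Cy3 over Cy5 (largest gap 4.96e-06); its column medians were -0.00223, 0, 0 and -0.000733, so its scale, centring and direction are known. It leaves 1896, 1130, 2350 and 1774 spots empty, for which the sources used here give no rule. No genome build applies to the arrays; probes keep the gene names and accessions of the files, and RefSeq tables of GRCm38.p6 gave loci and promoters. The source name of the passage 3 Cy5 RNA gives the first passage, while its title, description and passage entry give passage 3, which were followed.

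From the deposited raw intensities, limma 3.58.1 in R 4.3.3 gave normexp background correction (offset 50) and loess within arrays, with control spots at weight 0 and outlier spots left out. Ratios are log2 of Cy3 over Cy5, F/- over F/+, the direction of the deposited value table. Spots of 1 probe were averaged; a probe was kept if 2 or more arrays had it well above background in either channel and at most 1 array lacked it. Passage was the group in lmFit and eBayes (2 residual degrees of freedom, 2.81 from the prior). Passage within a genotype used a separate-channel fit after Aquantile normalization, on 35475 probes with no missing value (spot correlation 0.741). The 2 passage comparisons share arrays. P-values were two-sided and adjusted over all probes tested. All 4 arrays lay on 1 slide in 1 scan, so neither separates the groups.

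The design text states that the same 2 mice of each genotype were sampled at both passages, so same-numbered arrays are paired; across probes, their deviations from the mean of their passage had a correlation of -0.000464. Named genes are the members, at most 3 called genes of each pathway list by size, and the 5 probes nearest in pattern to a member; Adam17, Egr1, the called markers and genes called only under an alternative were added after their values were seen. The members, lists and tests were chosen with earlier results of these data known, so none is independent support. The fit was tested on simulated data. Alternatives changed the background correction, normalization, filter, gene value, arrays and block.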

Additional observations from a re-analysis of the deposited data

Results flagged for a closer look

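For 2 probes both early arrays read below 0 and both late arrays above 0. The Ereg probe A_51_P171215 read -0.33 and -0.33 at passage 1 and 0.25 and 0.02 at passage 3, and the test of late minus early gave 0.46 (limma adjusted p = 0.819). The Erbb3 probe A_51_P488243 read -0.03 and -0.11 at passage 1 and 0.14 and 0.03 at passage 3, a difference of 0.16 (adjusted p = 0.921). Neither difference passed the test, and the other probes of both genes did not show it.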

How the results depend on the processing

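Epgn kept its direction under all alternatives, with ratios between -1.23 and -1.0 in the mean of both passages. Of 31 single results that passed the test, 0 changed sign under an alternative, and a call was lost in 150 of their 403 comparisons with an alternative (37.2%). The genotype calls rest on 4 arrays from 2 pairs of mice, the dye cannot be told apart from the genotype, and members with several probes disagree. The number of members called in the mean of both passages was 1, and 0 to 2 without 1 array, 0 with the arrays of each pair averaged, and 2 with the mean of all kept probes, which added Erbb2. Background offset 0 gave 1 member, Epgn, at passage 1. With passage the count in F/- was 1, and 0 to 2 without 1 array. In F/+ it was 2, also with the mean of all kept probes, where Tgfa was called and Erbb3 was not, and 0 to 1 without 1 array. It was 1 with the known transcript's probe, with no normalization between arrays and with the scanner's processed signals. With no normalization between arrays the median of all probes was -0.15 in F/- and -0.13 in F/+.

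Over all probes the mean of both passages gave 3144 calls, against 0 to 3966 without 1 array, 0 with the arrays of each pair averaged, 1934 with the scanner's ratios and 1602 of 24248 genes with the mean of all kept probes. At passage 1 the count was 0, and 69 with offset 0. With passage the calls in F/- numbered 1807, against 107 to 3070 without 1 array and 664 with no normalization between arrays. Those in F/+ numbered 2007, against 183 to 4522 and 812. With 3 arrays the spot correlation could not be estimated, and that of 4 arrays was kept; a passage with 1 array left takes its spread from the other passage.

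The same mice were sampled at both passages. With the pair as a replicate block 2 members were called in F/- and 3 in F/+, with 3883 and 4083 probes in all, which added Erbb3 in F/- and Errfi1 in F/+. In the genotype comparisons the block changed the call of no member gene, and the calls of the Egfr probe A_52_P674338, Lrig2, Ier2 and Egr1 were lost.

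Signs turned only for values that did not pass the test themselves, and the cause was not tested. With median centring the passage 1 ratio was -0.084 for Areg and -0.27 for Hbegf, and the passage 3 ratio -0.093 for Erbb2, -0.18 for Erbb3 and -0.15 for Errfi1. The mean of both passages was then -0.0025 for Areg, -0.044 for Hbegf, -0.12 for Btc, -0.14 for Erbb2 and -0.086 for the second Tgfa probe. The Btc mean was -0.0030 with offset 0, -0.0036 with the scanner's ratios and -0.032 with the mean of all kept probes, and the passage 1 ratio of Areg -0.071 with the scanner's ratios. With the mean of all kept probes the passage 1 ratio was 0.035 for Egfr and 0.40 for Erbb2, the passage 3 ratio 0.026 for Ereg and 0.13 for Egfr, the mean 0.083 for Egfr and 0.018 for Erbb3, the late minus early value 0.22 for Ereg, and the passage change of Ereg in F/- 0.0047. With the known transcript's probe, added after seeing the data, Erbb3 had 0.21 at passage 1, 0.20 in the mean and -0.0031 in late minus early. Ereg then had 0.13 at passage 3, 0.46 in late minus early and a passage change of 0.14 in F/-.

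Without 1 array the passage 1 ratio ranged from -0.11 to 0.14 for Areg, -0.16 to 0.058 for Ereg, -0.70 to 0.056 for Btc, -0.060 to 0.0051 for Erbb2, -0.49 to 0.020 for Erbb3 and -0.71 to 0.079 for Errfi1. The passage 3 ratio ranged from -0.13 to 0.57 for Areg and -0.12 to 0.093 for Egfr. The mean ranged from -0.055 to 0.29 for Areg, -0.19 to 0.19 for Btc, -0.20 to 0.049 for Erbb3, -0.25 to 0.14 for Errfi1 and -0.056 to 0.098 for the second Tgfa probe. Late minus early ranged from -0.14 to 0.56 for Areg, -0.14 to 0.078 for Ereg and -0.12 to 0.83 for Tgfa, and the passage change of Ereg in F/+ from -0.24 to 0.047.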
